A study of Homo sapiens with 6 samples.

Results

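The trefoil factors are the 3 genes TFF1, TFF2 and TFF3, which encode small secreted peptides held in shape by paired cysteines. They were found by Entrez identifier (7031, 7032 and 7033), and all 3 were present among the 18030 genes of the deposited tables, with 1 RefSeq transcript each. They were chosen by family name after their counts and FPKM in these same libraries had been seen, so the difference between the groups is a description of them, with no test.

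Messenger RNA was sequenced from Huh-7, an established human line from a hepatocellular carcinoma, with 3 libraries in each of 2 groups. One group is oeALKBH5, cells electroporated with a plasmid for ALKBH5, a demethylase that takes the methyl mark m6A off RNA, with RNA taken after 60 h. The other is control, labelled WT. Control samples carry the same transfection text although the series design speaks of parental cells, so the labels do not say whether controls were electroporated or given an empty plasmid, and the promoter that drives ALKBH5 is not named. The libraries are numbered biological replicates, but no label says that they were separate cultures, so every spread and p-value here measures the variation between these samples, which may be technical.

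In the gut, each trefoil factor is secreted together with a mucin and protects and helps to restore the epithelial surface. TFF1 is a product of the surface mucous cells of the stomach, where MUC5AC is the mucin, and is a classical estrogen-induced gene of breast cancer cells. TFF2 comes from mucous neck and gland cells beside MUC6, and TFF3 from intestinal goblet cells beside MUC2. Hepatocytes of normal liver are not a typical source, whereas bile duct cells can make TFF1 and TFF3.

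The trefoil domain is the feature that joins the family. It holds 6 cysteines, and a search of the coding sequences for their spacing (9 or 10 codons between the first and second, then 9, then 4, an adjacent pair, then 10) found 1 domain in TFF1, 2 in TFF2 and 1 in TFF3. The 4 stretches are shown, from the first to the last cysteine codon, because they show what the members have in common and where reads from one could resemble another. Letters run 5′ to 3′ on the mRNA strand (the minus strand), with cysteine codons in capitals, and the sequences come from GENCODE release 29 transcripts on GRCh38.
TFF1: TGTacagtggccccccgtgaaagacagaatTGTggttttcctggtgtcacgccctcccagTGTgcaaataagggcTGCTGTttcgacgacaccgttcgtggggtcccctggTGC
TFF2, first domain: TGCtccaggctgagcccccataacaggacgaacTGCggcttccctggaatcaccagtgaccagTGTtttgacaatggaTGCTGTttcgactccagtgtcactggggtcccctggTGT
TFF2, second domain: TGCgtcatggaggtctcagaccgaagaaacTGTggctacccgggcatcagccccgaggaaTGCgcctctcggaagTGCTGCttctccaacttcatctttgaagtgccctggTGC
TFF3: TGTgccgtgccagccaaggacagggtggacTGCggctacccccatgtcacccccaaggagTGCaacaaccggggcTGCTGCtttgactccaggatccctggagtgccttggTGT

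Each stretch lies within a single exon: exon 2 of TFF1 (chr21:42363289-42363402), exons 2 and 3 of TFF2 (chr21:42349903-42350019 and chr21:42347508-42347621) and exon 2 of TFF3 (chr21:42313507-42313620). Over the 84 bases from the second cysteine codon on, TFF1 and the first TFF2 domain were the closest pair, with 58 identical bases (69.0%). The 2 domains of TFF2 were the least alike, with 45 (53.6%), and TFF3 matched TFF1 at 52. The coding sequences hold 84 codons in TFF1, 129 in TFF2 and 94 in TFF3. Estimated counts are fractional where a model divides reads among transcripts, as in 62.0% of all transcript values, but every value of the 3 trefoil transcripts was a whole number. The motif GGACT, one common form of the letters at which m6A is found, was searched on the mRNA strand only. It does not occur in the TFF1 or TFF2 transcript and occurs 1 time in TFF3, inside the domain printed above. Among GENCODE protein-coding transcripts within 20% of each length, 48.5% hold it at the length of TFF1, 56.7% at that of TFF2 and 70.1% at that of TFF3. No m6A was measured here.

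The libraries were alike in depth, with 18607084 to 19378030 estimated counts in each. ALKBH5 mRNA had 169, 133 and 110 CPM (counts relative to the scaled library size) in oeALKBH5, against 70.5, 74.2 and 75.5 CPM in control libraries. On the log2 scale it rose by 0.90 (SE 0.177; edgeR adjusted p = 0.0154). Leaving out control replicate 2 or 3 ended that call (edgeR adjusted p = 0.0529 and 0.0589). The labelled cell type was borne out by its markers: all 17 hepatocyte markers stood above 1 FPKM in every library, with AFP, the fetal albumin-like protein, at 2745 FPKM in oeALKBH5 and 4200.5 FPKM in control (FPKM scales fragments by transcript length and depth). In bulk RNA, fewer cells that make a transcript and less of it per cell cannot be told apart.

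All 3 trefoil mRNAs were lower in oeALKBH5 cells, in the order TFF1, TFF2, TFF3. TFF1 stood at 19.1% of its control level in CPM, TFF2 at 27.97% and TFF3 at 56.6%. In each of them the highest oeALKBH5 library lay below the lowest control library, as it did for 27% of all tested genes (for 25.8% the ranges were apart in the other direction), and the rest of this description rests on the same contrast that chose the genes.

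TFF1, at chr21:42362282-42366594, was the most abundant of the family in control cells. Its estimated counts were 299, 217 and 231 in oeALKBH5 libraries, against 1269, 1276 and 1269 in control libraries. In CPM these are 15.5, 11.3 and 12.1 in oeALKBH5 and 68.2, 67.4 and 67.4 in control. The groups are far apart: the lowest control library held 4.33 times the CPM of the highest oeALKBH5 library. The log2 fold change was -2.38 (SE 0.083), which is 5.22-fold lower and the 7th lowest of 14168 tested genes. Control libraries differed very little, with an SD of 4.04 counts where counting error alone (the square root of the mean) would give 35.7. In oeALKBH5 the SD of 43.9 counts exceeded the counting error of 15.8, since replicate 1 stood above the other libraries of its group.

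TFF2, at chr21:42346357-42351128, is the member with 2 trefoil domains. It had 250, 156 and 193 counts in oeALKBH5, against 709, 670 and 715 in control. In CPM it had 12.99, 8.10 and 10.1 in oeALKBH5 and 38.1, 35.4 and 38.0 in control. Again oeALKBH5 replicate 1 was the highest of its group and replicate 2 the lowest. The log2 fold change was -1.84 (SE 0.118), 3.57-fold lower and 21st from the lowest of the tested genes. TFF2 was the most variable member among oeALKBH5 libraries, with a coefficient of variation of 23.7% in CPM, against 4.13% in control.

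TFF3, at chr21:42311667-42315651, fell least. Its counts were 387, 352 and 356 in oeALKBH5, against 648, 580 and 664 in control, or 20.1, 18.3 and 18.6 CPM against 34.8, 30.6 and 35.2 CPM. The oeALKBH5 libraries were close to each other, with an SD of 19.2 counts at a counting error of 19.1. Here the control group varied more, with an SD of 44.6 counts at a counting error of 25.1, since control replicate 2 was below the other controls. The log2 fold change was -0.82 (SE 0.0737), 1.77-fold lower. With rank 229 from the lowest it lay well behind the other members, and 1.58% of tested genes fell at least as far with groups that do not overlap.

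**Figure D1:**
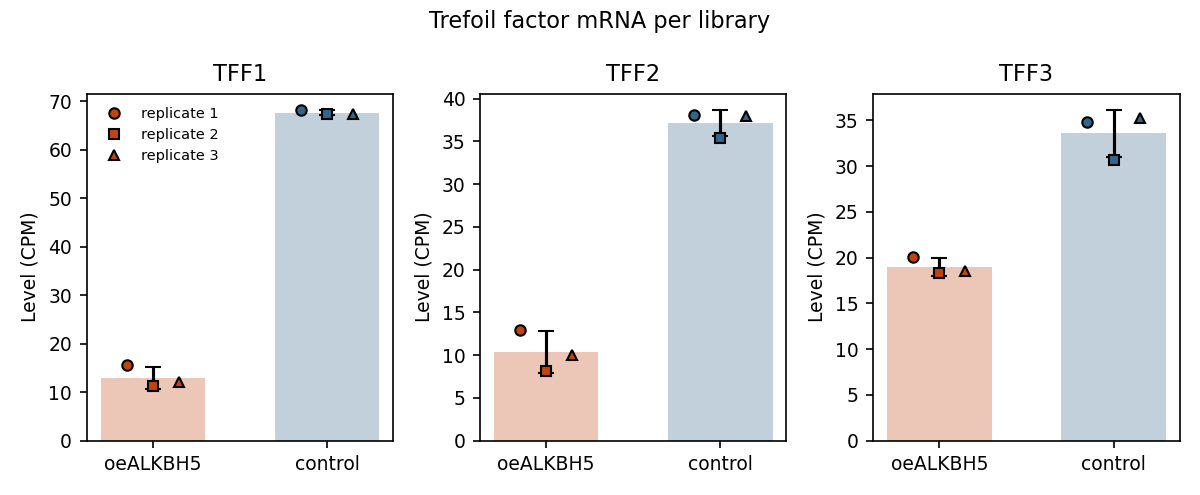
Levels of TFF1, TFF2 and TFF3 in CPM (y axis, from 0, with its own scale in each panel) in the oeALKBH5 and control libraries; bars are means, error bars SD, points single libraries. In each panel the 3 oeALKBH5 libraries lie below every control library, and the gap narrows in the order TFF1, TFF2, TFF3.

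Leaving out single libraries moved these values little. The log2 fold change of TFF1 ran from -2.53 to -2.29, that of TFF2 from -2.03 to -1.68 and that of TFF3 from -0.88 to -0.79. For TFF1 and TFF2 the lowest value came without oeALKBH5 replicate 1. That library held the most ALKBH5 mRNA, 169 CPM, and the highest level of every trefoil factor in its group. The lowest trefoil levels were those of oeALKBH5 replicate 2, with 133 CPM of ALKBH5, the middle value of its group. A relation between ALKBH5 and trefoil levels across libraries was not tested.

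The authors' FPKM values allow the members to be compared with each other per length. TFF1 had 36.1, 26.3 and 27.7 FPKM in oeALKBH5, against 149, 149 and 148 FPKM in control. TFF2 had 24.1, 15.1 and 18.5 FPKM in oeALKBH5, against 66.4, 62.5 and 66.6 FPKM in control. TFF3 had 20.6, 18.8 and 18.8 FPKM in oeALKBH5, against 33.5, 29.8 and 34.1 FPKM in control. The order of levels was thus TFF1 above TFF2 above TFF3 in control, with no overlap between neighbours. In oeALKBH5, TFF1 was still the highest, while TFF2 (19.3 ± 4.54, SD, n = 3) and TFF3 (19.4 ± 1.02) did not differ beyond their spread. By mean FPKM over all 18030 genes, TFF1 ranked 2875th in oeALKBH5 and 540th in control.

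The make-up of the trefoil mRNA differed with it. Summed over the family, FPKM was 68.7 ± 10.7 in oeALKBH5 and 246 ± 4.24 in control (SD, n = 3 each), 3.58-fold lower. TFF1 made up 43.6% ± 1.03 of that sum in oeALKBH5 and 60.3% ± 1.21 in control. TFF3 made up 28.5% ± 2.89 in oeALKBH5 and 13.2% ± 0.719 in control. The share of TFF2 was nearly the same, 27.8% ± 2.45 in oeALKBH5 and 26.5% ± 0.490 in control, and its groups overlapped. Per length there were 1.54 ± 0.187 TFF1 fragments for each TFF3 fragment in oeALKBH5, against 4.59 ± 0.352 in control.

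**Figure D2:**
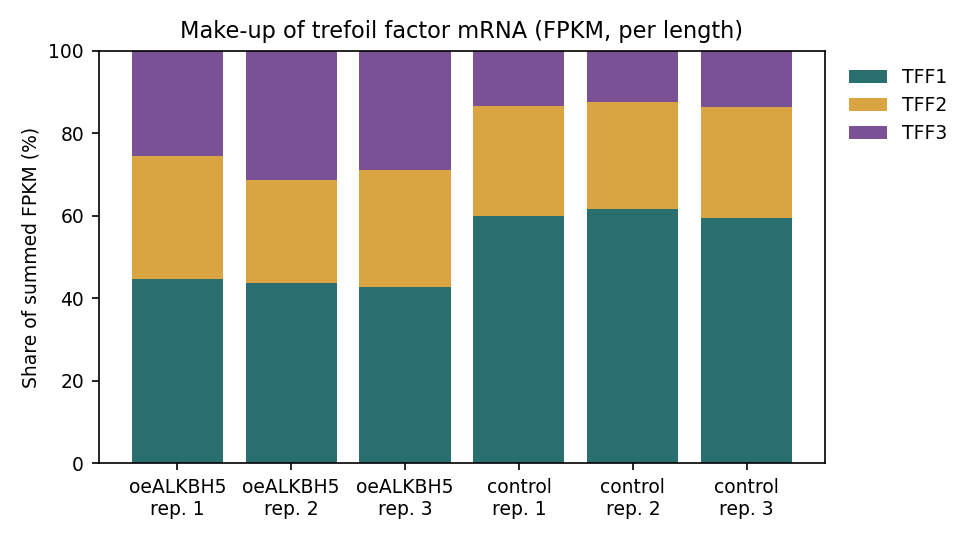
Share of TFF1, TFF2 and TFF3 in their summed FPKM (y axis, percent) in each library. TFF1 takes 42.6% to 44.7% in oeALKBH5 and 59.5% to 61.7% in control libraries, and TFF3 takes the larger share in oeALKBH5.

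The genes lie in a row on the minus strand of chromosome 21, within 54.9 kb, in the order TFF3, TFF2, TFF1. The gaps between them are 30.7 kb and 11.2 kb. The size of the fall followed that order, with TFF3 at the low end and TFF1 at the high end. Within 500 kb of the cluster GENCODE places 11 other protein-coding genes, of which 7 had enough counts to be tested. The nearest genes on either side were near silent: the cholesterol exporter ABCG1, 14.4 kb away, had 0.120 FPKM in oeALKBH5 and 0.0733 FPKM in control. The serine protease TMPRSS3, 5.24 kb from TFF1, had 0.263 FPKM in oeALKBH5 and 0.120 FPKM in control. The other genes that were not tested, UMODL1 and UBASH3A, stayed under 0.1 FPKM in the mean of both groups.

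Of the 7 tested neighbours 1 fell and 2 rose, beside 22% of all tested genes that were lower and 20.8% that were higher in oeALKBH5 by the same rule (edgeR adjusted p under 0.05). With library size alone in place of scaling, 4266 genes were higher and 2047 lower, against 2947 and 3113 in the scaled fit. SLC37A1, a sugar-phosphate exchanger 129 kb away, fell to 49.0 ± 4.56 CPM in oeALKBH5, against 64.6 ± 2.34 CPM in control (log2 fold change -0.40, SE 0.0624, edgeR adjusted p = 3.71e-05). ZBTB21, a zinc finger factor, rose by 0.34 (SE 0.0751, edgeR adjusted p = 0.00121). PDE9A, which degrades cyclic GMP, rose by 0.27 (SE 0.0695, edgeR adjusted p = 0.00407). RSPH1, a radial spoke protein of cilia 106 kb away, was at -0.49 with a wide error (SE 0.199, edgeR adjusted p = 0.0524), and C2CD2 and WDR4 were at 0.15 and 0.24 without passing; WDR4 passed with library size alone (edgeR adjusted p = 0.0305). PRDM15 was at -0.05 (SE 0.101) and did not pass, and its sign turned with library size alone (0.03) and without oeALKBH5 replicate 3 (0.07). The lowest of these 7 values, that of RSPH1, compares with -0.82 (SE 0.0737) for TFF3; the difference between the genes was not tested. Over the 140 other tested genes of chromosome 21, 28 were higher and 23 lower, with a median log2 fold change of 0.006, the same as that of all tested genes at this rounding, and 2 were as low as TFF3 or lower.

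**Figure D3:**
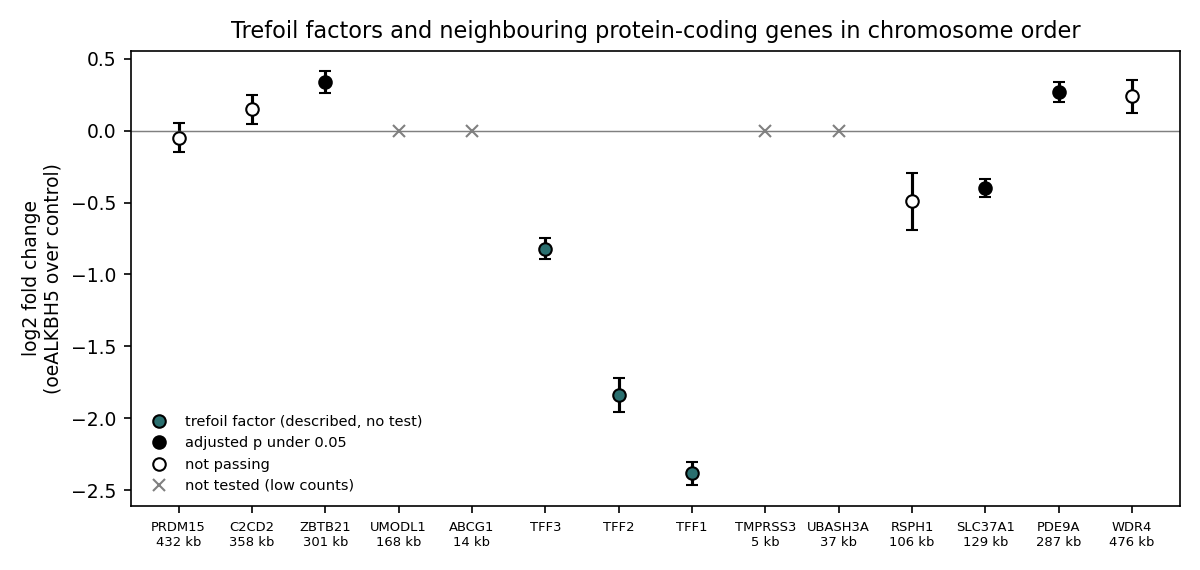
Log2 fold change of oeALKBH5 over control (y axis, error bars SE) for the trefoil factors and the protein-coding genes within 500 kb, in chromosome order with the distance to the cluster under each name; crosses at 0 mark genes with too few counts to test. The trefoil factors lie between -2.38 and -0.82, and the tested neighbours between -0.49 and 0.34.

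The mucins and other secreted products of mucosa that the trefoil factors accompany were looked at next, in a list of 27 genes, of which 24 were in the tables and 14 had enough counts to be tested. Of these 14, 4 rose and 7 fell, with a median log2 fold change of -0.29, against a median of 0.006 and 42.8% called over all tested genes. The partner mucins themselves were barely expressed. MUC2 had 0 or 1 count in oeALKBH5 and 0 to 3 in control libraries. MUC5AC had 27, 2 and 1 counts in oeALKBH5 and 1, 0 and 0 in control, so that almost all of its reads came from oeALKBH5 replicate 1. MUC6 rose at a very low level, with 14, 13 and 14 counts in oeALKBH5 against 4, 0 and 4 in control (log2 fold change 2.27, SE 0.529, edgeR adjusted p = 0.00175). FCGBP, a mucus protein that binds TFF3, was at -0.33 (SE 0.148, edgeR adjusted p = 0.0776), and passed without oeALKBH5 replicate 1 (edgeR adjusted p = 0.0108). DMBT1, a scavenger receptor protein that binds TFF2 and TFF3, had 0 or 1 count in every library. GKN1 and GKN2, the gastrokines, were not analysed here.

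Secreted products with high levels moved in both directions. AGR2, the disulfide isomerase that mucin-secreting cells need, fell to 61.0 CPM in oeALKBH5, against 126 CPM in control (log2 fold change -1.05, SE 0.0488, edgeR adjusted p = 2.32e-12). Its libraries held 60.3, 60.3 and 62.5 CPM in oeALKBH5 and 130, 123 and 126 CPM in control, which leaves a clear gap. REG1A, a secreted lectin-like protein of pancreas and gut, fell by 1.33 (SE 0.0622), with 46.4, 38.5 and 40.0 CPM in oeALKBH5 and 108, 102 and 103 CPM in control. Its relative REG3A rose by 0.38 (SE 0.0774). The membrane mucins MUC12 (-0.89), MUC13 (-0.59) and MUC3A (-0.54) fell, while MUC1 (0.94, SE 0.181) and MUC15 (0.22) rose. LYZ, lysozyme, was at 0.18 (SE 0.0766, edgeR adjusted p = 0.0813). LYZ passed by DESeq2 (adjusted p = 0.0315), with library size alone (edgeR adjusted p = 0.0142) and without oeALKBH5 replicate 1 (edgeR adjusted p = 4.47e-07). In oeALKBH5, replicate 1 was the highest library for REG1A, as for the trefoil factors. The same held for MUC12, MUC13 and MUC3A, which fell, and for MUC1 and REG3A, which rose. It did not hold for AGR2, MUC15 or LYZ.

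Little is settled about trefoil receptors, but several have been proposed, and 11 of 14 genes of that list were tested. Of them 1 rose and 3 fell (median log2 fold change -0.05), so that 36.4% were called, a share near the 42.8% of all tested genes. CXCR4, a chemokine receptor proposed for TFF2, had 2 or 3 counts in oeALKBH5 and 0 to 3 in control, and LINGO2, proposed for TFF3, stood at 0.02 FPKM in both groups at this rounding. EGFR was well expressed at 248 CPM in oeALKBH5 and 231 CPM in control and did not pass (log2 fold change 0.10, SE 0.0518, edgeR adjusted p = 0.119). EGFR passed without oeALKBH5 replicate 3 (edgeR adjusted p = 0.00652) and with library size alone (edgeR adjusted p = 0.00837). ACKR3 (-0.36, SE 0.154) and LRIG1 (0.13, SE 0.0876) did not pass either, though ACKR3 did without oeALKBH5 replicate 1, at an edgeR adjusted p of 0.0335. F2RL1, the protease-activated receptor PAR-2 of epithelia, fell to 15.8 CPM in oeALKBH5, against 30.4 CPM in control (-0.94, SE 0.0742). The abundant surface proteins BSG (-0.22) and CD63 (-0.21) also fell, and ITGB1 was at -0.04 (SE 0.0431), and at 0.04 with library size alone, passing in neither. IL1RAP rose by 0.24 (SE 0.0704, edgeR adjusted p = 0.0113), a call lost without control replicate 1 (edgeR adjusted p = 0.0579).

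Transcription factors that act on trefoil promoters or in mucosal secretory cells went both ways. Of 34 tested of 37, 10 rose and 12 fell, with a median log2 fold change of -0.09, and 64.7% were called, against 42.8% of all tested genes. With library size alone in place of scaling the split was 13 higher and 7 lower. The forkhead factor FOXA1, which opens the TFF1 promoter to the estrogen receptor in breast cells, had 128 CPM in oeALKBH5 and 139 CPM in control (-0.11, SE 0.0461, edgeR adjusted p = 0.0513). FOXA1 passed without oeALKBH5 replicate 1, at an edgeR adjusted p of 0.043. FOXA2 was at 0.11 (SE 0.0559, edgeR adjusted p = 0.11), and passed with library size alone (edgeR adjusted p = 0.00853). ESR1, the estrogen receptor itself, was low, with 46, 48 and 33 counts in oeALKBH5 and 30, 29 and 40 in control, and did not pass (0.33, SE 0.218).

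Among gut factors, CDX2, the intestinal homeobox factor, fell to 211 CPM in oeALKBH5, against 278 CPM in control (-0.40, SE 0.0481, edgeR adjusted p = 1.90e-06). KLF4, a factor of goblet cell differentiation, fell further, to 18.9, 17.6 and 15.97 CPM in oeALKBH5, against 29.9, 31.8 and 31.3 CPM in control (-0.82, SE 0.0737, edgeR adjusted p = 3.10e-08). GATA4, a factor of stomach and liver endoderm, was 0.16 lower on the log2 scale (SE 0.0454, edgeR adjusted p = 0.00880). It lost its call without control replicate 1 (edgeR adjusted p = 0.0529) and with library size alone (edgeR adjusted p = 0.166), and GATA6 was at -0.13 (SE 0.052, edgeR adjusted p = 0.0562). GATA6 passed without oeALKBH5 replicate 1 (edgeR adjusted p = 0.0353), without control replicate 2 (edgeR adjusted p = 0.0423) and without the filter (edgeR adjusted p = 0.0494). XBP1 (-0.27) and CEBPA (-0.18) fell, and SOX9 (0.30), PPARG (0.27), ONECUT1 (0.38) and CREB1 (0.27) rose. CEBPA lost its call with library size alone (edgeR adjusted p = 0.0758). HNF4A, at -0.12, passed narrowly (edgeR adjusted p = 0.0298) and lost its call without oeALKBH5 replicate 2 (0.109) and without control replicate 1, 2 or 3 (0.0818, 0.0887 and 0.0905), as it did with library size alone (0.453). SPDEF, the master factor of goblet cells, had 6, 7 and 3 counts in oeALKBH5 and 6, 8 and 9 in control and was not tested.

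TFF1 is known best as an estrogen target, so genes that respond to estradiol in breast cancer cells were set beside it. Of 25 tested genes in a list of 30, 8 rose, 6 fell and 11 did not pass, with a median log2 fold change of 0.03. The called share was 56%, against 42.8% of all tested genes. FHL2, a LIM-domain cofactor, rose by 1.09 (SE 0.118) and MYC by 0.29 (SE 0.0583). The keratin KRT19 (-0.57), the kinase inhibitor PKIB (-0.65) and the scaffold PDZK1 (-0.45) fell. CTSD, the lysosomal protease cathepsin D, had 704 CPM in oeALKBH5 and 752 CPM in control and did not pass (-0.10, SE 0.05, edgeR adjusted p = 0.128). CTSD passed without oeALKBH5 replicate 1, at an edgeR adjusted p of 0.0164.

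Other human proteins that carry a trefoil domain are digestive and lysosomal glucosidases and egg coat proteins. Of 4 tested of 6, 2 rose, 1 fell and 1 did not pass, with a median log2 fold change of 0.20. That is 75% called, against 42.8% of all tested genes, in a list of very few genes. SI, the sucrase-isomaltase of the intestinal brush border, fell by 0.73 (SE 0.1, edgeR adjusted p = 8.51e-06). MGAM, the related maltase-glucoamylase, rose by 0.38 (SE 0.112, edgeR adjusted p = 0.0163). MGAM lost its call without control replicate 1 (0.0702) or 3 (0.0639). GAA, the acid glucosidase of lysosomes, rose by 0.13 (SE 0.0502, edgeR adjusted p = 0.0433). GAA lost its call without oeALKBH5 replicate 2 or 3 (0.0771 and 0.0572), without control replicate 2 or 3 (0.235 and 0.167), without the filter (0.0556) and by DESeq2 (adjusted p = 0.0606).

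Marker genes of other epithelia that were called in the scaled fit were all lower. Of 22 markers of stomach, intestine and bile duct in the tables, 13 were tested, 7 fell and 0 rose (median log2 fold change -0.29), and 13 stayed under 1 FPKM in every library. The 7 that fell are 53.8% of those tested, beside 22% lower and 42.8% called among all tested genes. Their summed level was 370 to 401 FPKM in oeALKBH5 and 479 to 480 FPKM in control. Several are well expressed in these cells: the intestinal cadherin CDH17 had 63.7 FPKM in oeALKBH5 and 95.5 FPKM in control (-0.67, SE 0.0517), and TSPAN8 had 103 and 135 FPKM in the same order (-0.45, SE 0.0458). CEACAM6 fell by 1.26 (SE 0.103). The anion exchanger SLC4A2, among the most abundant of the list, had 95.6 FPKM in oeALKBH5 and 84.7 FPKM in control and did not pass (0.10, SE 0.0471, edgeR adjusted p = 0.091). SLC4A2 passed with library size alone (edgeR adjusted p = 0.00306) and without oeALKBH5 replicate 3 (edgeR adjusted p = 0.0444). KRT7, a bile duct keratin, was at 0.64 with a wide error (SE 0.472) and did not pass. The gastric markers LIPF and ATP4A stood at or near 0, with means up to 0.03 FPKM in oeALKBH5 and 0.00333 FPKM in control. The hepatocyte markers fell in 17 of 17 cases, beside 22% of all tested genes, with a median of -0.52 and a summed level of 15135 to 16268 FPKM in oeALKBH5, against 22632 to 23294 FPKM in control. ALB, serum albumin, fell by 0.52 (SE 0.0477). APOA1, the chief apolipoprotein of HDL, fell by 1.05 (SE 0.0472). The part of these marker levels in the trefoil levels was not tested.

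**Figure D4:**
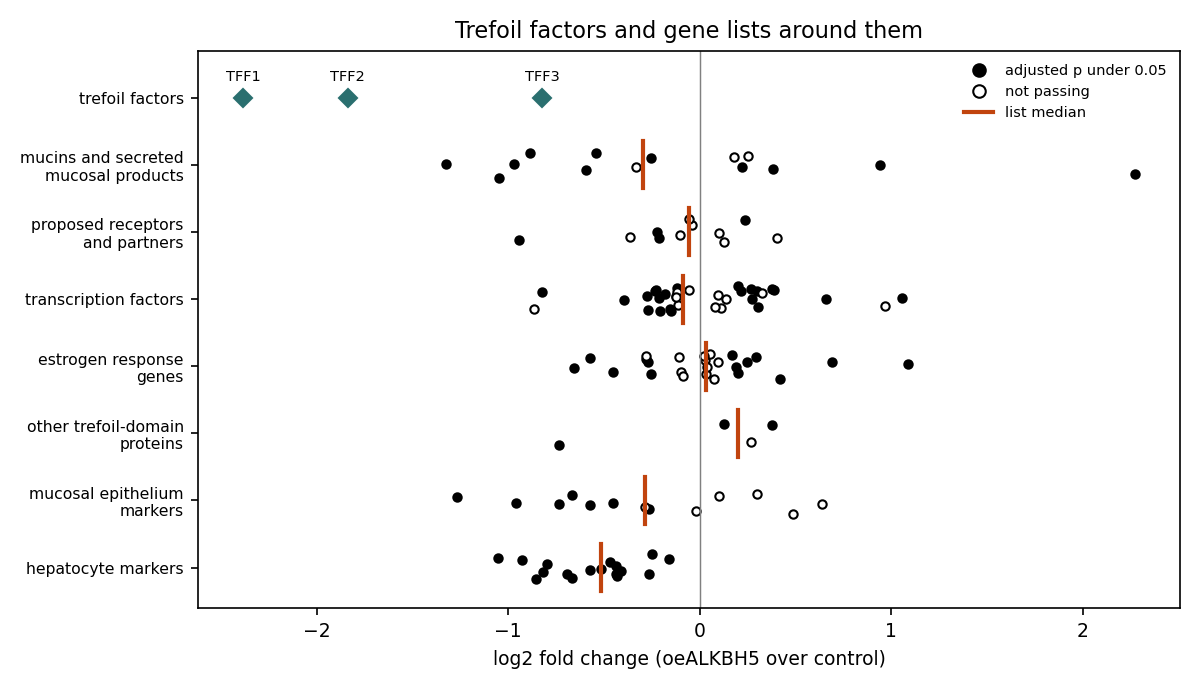
Log2 fold change of oeALKBH5 over control (x axis) for the trefoil factors (top row, described without a test) and for each tested member of 7 gene lists (one point a gene; filled, edgeR adjusted p under 0.05), with the list median as a bar. TFF1 and TFF2 lie below every plotted list member, and the list medians run from -0.52 to 0.20.

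Genes with profiles most like those of the trefoil factors were sought over the 6 libraries, by the root mean square distance between log2 CPM values centred on each gene's own mean, among the 13251 tested genes whose log2 CPM averaged 0 or more. The measure is a description and mostly reflects the size of the difference between the groups. APOA4, an apolipoprotein of intestine and liver, was nearest to TFF1 (distance 0.10). DPEP1, a membrane dipeptidase (0.15), SDCBP2, a PDZ protein (0.19), APCS, the serum amyloid P component (0.22), and SLC39A4, a zinc importer (0.24), followed. TFF2 came next among these neighbours of TFF1, at rank 6 (0.28). The genes nearest to TFF2 were SDCBP2 (0.14), the vesicle protein SYP (0.14), the monooxygenase FMO1 (0.20), APOA4 (0.21) and the secreted protein WFDC2 (0.21). TFF1 was at rank 13 from TFF2.

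TFF3 had closer company. APOC3, an apolipoprotein that slows the clearance of triglyceride-rich particles, was at a distance of 0.03, with 59.6, 54.6 and 53.3 CPM in oeALKBH5, against 103, 92.2 and 101 CPM in control. The elastase inhibitor PI3 (0.05), the adhesion receptor ADGRG7 (0.06), the cell cycle inhibitor CDKN1A (0.06) and TCTA (0.07) were next. The other trefoil factors lay farther from it, with TFF2 at rank 10571 (0.55) and TFF1 at rank 12901 (0.80). Counted from the other side, at the same distances, TFF3 was at rank 152 from TFF2 and rank 169 from TFF1, among the 13251 genes.

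**Figure D5:**
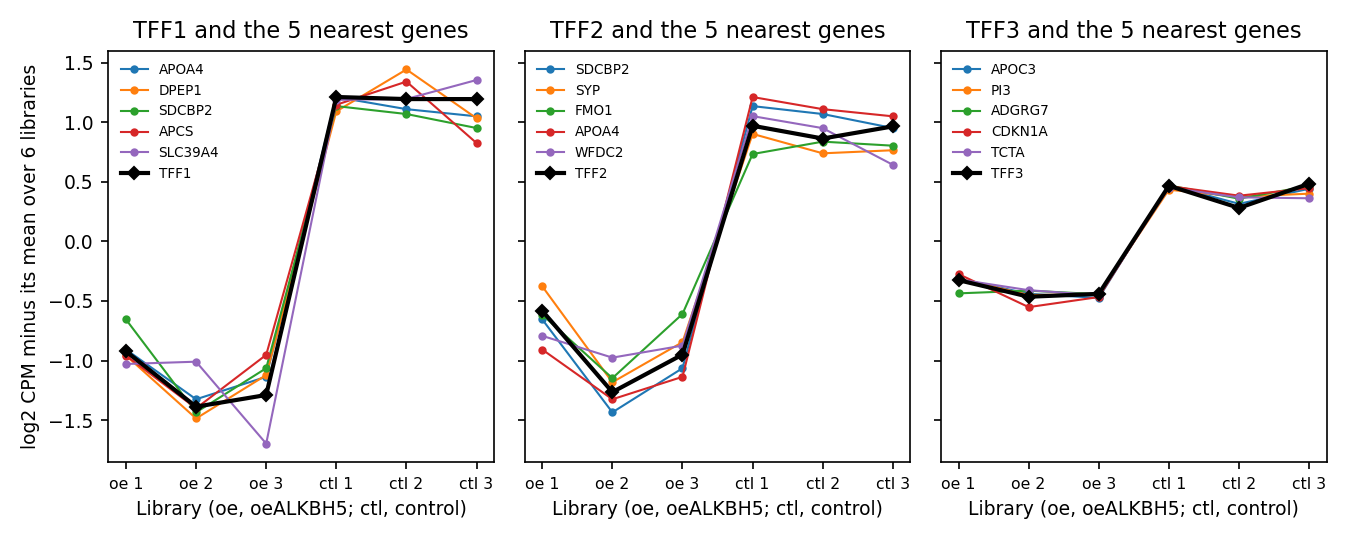
Log2 CPM of each trefoil factor (black) and of its 5 nearest genes (colours), centred on the mean over 6 libraries (y axis), in oeALKBH5 and control libraries (x axis). TFF1 and TFF2 dip lowest in oeALKBH5 replicate 2. Most of their near genes share the dip, but they were picked by likeness over these same libraries. Some dips rest on few oeALKBH5 counts: FMO1 had 13, 9 and 13, APCS 19, 14 and 19, and WFDC2 17, 15 and 16. SLC39A4 was lowest in replicate 3 instead. The profiles around TFF3 differ less between the groups.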

How the data were processed

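Estimated counts per RefSeq transcript, unscaled, and FPKM values were deposited by the authors. RSEM 1.2.8, HISAT2 2.1.0, Bowtie2 2.2.5 and, as the build, GRCh38.p13 are named, per the submitters' processing notes. Their roles, any filter and the use of strand: not given in the sources used here.

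Values of 80668 transcripts were summed to 18030 genes by Entrez identifier (17881 matched a symbol), and counts were rounded. Testing used edgeR 4.0.16 in R 4.3.3 with TMM scaling, an expression filter at a minimum count of 10 and a two-sided, robust quasi-likelihood test between the groups. P-values were adjusted by Benjamini-Hochberg over all tested genes, with a call under 0.05. The SE was obtained from the log2 fold change and the F statistic. FPKM went through limma 3.58.1 as log2(FPKM + 1), for genes at 1 FPKM or more in 3 libraries, where 45.9% of 12016 genes were called. Alternatives included DESeq2 1.42.0 and limma-voom. The scripts were tested on simulated counts.

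The members, all 7 lists and the naming rule were chosen with earlier results of these data known. The rule takes, in each list, up to 4 called members a direction by p, the 3 most abundant and direct partners of trefoil factors, and adds all genes within 500 kb and the 5 nearest profiles. LIPF, ATP4A and KRT7 fall outside it and were named after their values were seen. Trefoil promoters and proteins were not analysed here, and 1 named list member is not reported here.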

Additional observations from a re-analysis of the deposited data

How the results depend on the processing

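Among the values reported, 2 that did not pass changed sign: ITGB1 with library size alone (0.0389), and PRDM15 with library size alone (0.0316) and without oeALKBH5 replicate 3 (0.0711). Leaving out single libraries gave -0.125 to 0.0711 for PRDM15. The settings run were other size factors, library size alone, no filter, DESeq2, limma-voom, the replicate block, another pseudocount and each library left out. The log2 fold changes of TFF1, TFF2 and TFF3 kept their direction in all of these; with library size alone they were -2.30, -1.76 and -0.74. On log2(FPKM + 1) the differences were -2.28, -1.73 and -0.71. Unscaled library sizes gave 4266 higher and 2047 lower genes (2947 and 3113 with scaling), and the median of all genes was then 0.085. The receptor list then had 2 members higher and 3 lower, and the transcription factor list 13 and 7 (10 and 12 with scaling). The mucosal marker list had 1 and 7, and the hepatocyte list 0 and 16 (0 and 17 with scaling). The glucosidase and egg coat list had 1 higher without the filter and by DESeq2. Leaving out 1 library gave 4878 to 6353 changed genes, 0 to 2 higher in the receptor list, 0 to 2 in the glucosidase list and 0 to 1 among mucosal markers. The transcription factor list then had 7 to 10 higher and 10 to 17 lower. Same-numbered libraries did not deviate together (correlations -0.0236, 0.0125 and -0.0103), and no library correlated best with its own number. With so few libraries this cannot exclude a pairing by number, and the labels state none. With the replicate block 6468 genes were called against 6060 and 1 mucosal marker was higher, while ALKBH5 did not pass (edgeR adjusted p = 0.0538) and LYZ, FOXA1, FOXA2, GATA6 and SLC4A2 passed (edgeR adjusted p = 0.0114, 0.0292, 0.0378, 0.0325 and 0.0374). Depth limits the low genes: at 0 to 27 counts a library, nothing can be said of MUC2, MUC5AC, DMBT1, CXCR4 or SPDEF beyond their counts. MUC6 was tested but was also low, with 14, 13 and 14 counts in oeALKBH5 and 4, 0 and 4 in control. Leaving out single libraries gave it log2 fold changes from 1.70 to 2.67, so the size of its rise is uncertain.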
